A study of Homo sapiens with 12 samples.

Results

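The MHC class II genes were followed through 12 Affymetrix arrays of prostate cancer cells. They were taken from a fixed list of 9 genes: the chain genes HLA-DRA, HLA-DRB1, HLA-DPA1, HLA-DPB1, HLA-DQA1 and HLA-DQB1, the peptide exchange genes HLA-DMA and HLA-DMB, and the invariant chain gene CD74. All probe sets naming only 1 of these genes were included, which gave 19 probe sets of 9 genes, among 22277 probe sets and 11963 genes in all. A further 5 probe sets name a member together with other class II genes and are described separately. The cells were LnCaP and 22RV1, both established human prostate cancer cell lines, and each was either treated with nicotine or left untreated. The 4 groups, of 3 arrays each, were LnCaP in 100 µM nicotine tartrate for 24 h, untreated LnCaP, 22RV1 in 100 µM nicotine tartrate for 24 h, and untreated 22RV1. The labels name no vehicle for the untreated cells and do not say whether replicates were separate cultures, so the p-values reflect only how far these arrays spread, and that spread may be technical.

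MHC class II molecules are pairs of an α and a β chain that present peptides from endosomes to CD4+ T cells. The invariant chain CD74 escorts newly made pairs to the endosome and blocks their groove, and the HLA-DM pair then exchanges its remnant for other peptides. These genes are mainly active in B cells, macrophages and dendritic cells, and epithelial cells can switch them on under interferon-γ. Their promoters share an X box, bound by the RFX complex and CREB1, and a Y box, bound by NF-Y, and the coactivator CIITA acts through the assembled complex. HLA-DRB1, HLA-DQB1 and HLA-DPB1 are among the most polymorphic human genes.

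The stretches before the starts of HLA-DMA and HLA-DQB1 are shown because probe sets of these genes had the largest differences between the lines, HLA-DMA 217478_s_at higher and HLA-DQB1 209823_x_at lower in LnCaP. HLA-DRB1, with no difference called, and HLA-DMB, the partner of HLA-DMA, stand beside them. Sequences are those of RefSeq on GRCh38.p14, read 5′ to 3′ on the minus strand, and end at the base before the annotated start: chr6:32953098-32953247 for HLA-DMA, chr6:32666658-32666807 for HLA-DQB1, chr6:32589849-32589998 for HLA-DRB1 and chr6:32941029-32941178 for HLA-DMB. Capitals mark an X box core, AGNNACNG, followed on the same strand by a Y box core, GATTGG, with 10 to 30 bases between.
HLA-DMA: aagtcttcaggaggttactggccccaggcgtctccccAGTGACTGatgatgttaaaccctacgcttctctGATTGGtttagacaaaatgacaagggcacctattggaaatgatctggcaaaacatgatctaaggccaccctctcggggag
HLA-DQB1: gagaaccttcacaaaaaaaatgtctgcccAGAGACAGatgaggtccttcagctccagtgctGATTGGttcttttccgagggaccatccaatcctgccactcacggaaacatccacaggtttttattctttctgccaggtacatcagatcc
HLA-DRB1: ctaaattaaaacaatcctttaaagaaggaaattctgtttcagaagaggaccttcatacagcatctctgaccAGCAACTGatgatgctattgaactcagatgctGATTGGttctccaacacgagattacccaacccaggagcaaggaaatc
HLA-DMB: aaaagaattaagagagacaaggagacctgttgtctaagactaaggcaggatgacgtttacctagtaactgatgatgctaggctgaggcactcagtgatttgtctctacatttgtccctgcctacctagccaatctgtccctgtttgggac

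The X core then Y core pair was found for 3 of the 8 members with a window, namely HLA-DMA, HLA-DQB1 and HLA-DRB1. Over all 35116 windows of 250 bases before a start, 0.3759% held such a pair, whereas 40.91% held an X core and 14.07% a Y core on either strand. In HLA-DMA, 25 bases lay between the cores, against 24 in HLA-DQB1 and 24 in HLA-DRB1. The HLA-DMB window held an X core on the gene's strand but no Y core following it at that distance. Only exact matches to the core letters were counted, so a box with other letters would not be found. HLA-DRA was not in the promoter table. HLA-DMA and HLA-DQB1 thus held the same arrangement of letters as HLA-DRB1, which is a description of sequence and not of binding.

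**Figure D1:**
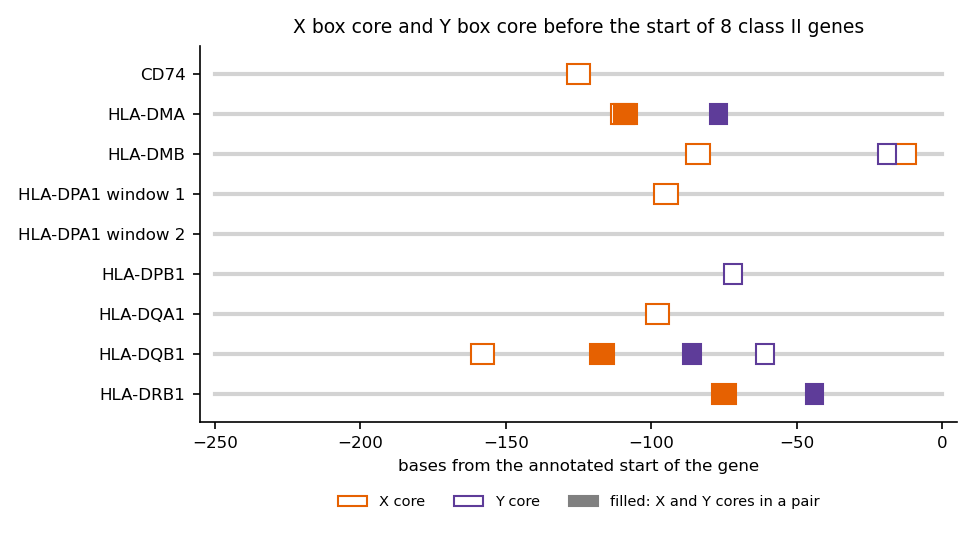
Positions of the X box core (orange) and Y box core (purple), on either strand, along the 250 bases before the annotated start of 8 class II genes (HLA-DPA1 has a pair of windows), with bases from the start on the horizontal axis. Filled boxes are cores in a pair, seen in HLA-DMA, HLA-DQB1 and HLA-DRB1.

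The median of an array lay between 6.61 and 6.71 on the log2 scale of the deposited values, and its lower quartile between 4.73 and 4.82. Probe sets differ in brightness at equal RNA, so the order of levels between genes is not read here, and the table used here holds no detection calls. Within a group, the lowest correlation between arrays was 0.9915, and the 4 arrays numbered 3 held 47.19% of the residual sum of squares. Markers of prostate epithelium had a mean log2 value over 8 genes of 10.85 to 11.07 on the LnCaP arrays and 9.70 to 10.36 on the 22RV1 arrays. For leukocyte markers, the array means over all 12 arrays were 5.24 to 5.52 over 4 B cell genes, 4.65 to 4.96 over 7 myeloid and dendritic genes and 4.87 to 5.28 over 3 T cell genes, and PTPRC, the common leukocyte antigen gene, lay between 4.09 and 4.46. None of these leukocyte markers was called between the untreated lines or after nicotine by limma, and between the treated lines only ITGAX was (log2 difference 0.27, adjusted p = 0.0396).

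The difference between the lines was large for HLA-DMA and for some probe sets of HLA-DQB1, and small or not called for most other class II genes. Of the 19 probe sets, limma called 11 between untreated LnCaP and untreated 22RV1 (adjusted p under 0.05), while 43.7% of all 22277 probe sets were called. Higher in LnCaP were 6, against 22.8% of all, and lower were 5, against 20.9% of all. Between the nicotine-treated lines 9 were called, against 46.2% of all probe sets, with 6 higher (23.8% of all) and 3 lower (22.4% of all). The arrays of the lines did not overlap for 12 of the 19 in treated cells, against 55.8% of all probe sets, and for 11 in untreated cells, against 52.3%. These shares were near the background, so that the class II genes as a set did not stand out by the number of calls. The median log2 difference of the 19 was 0.07 between the untreated lines, against 0.04 over all probe sets. With the probe set of highest mean standing for each gene, 5 of 9 genes were called between the untreated lines, against 47.3% of all genes (25.1% higher and 22.2% lower in LnCaP): HLA-DMA, HLA-DPA1 and CD74 higher, and HLA-DQB1 and HLA-DPB1 lower, in LnCaP.

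**Figure D2:**
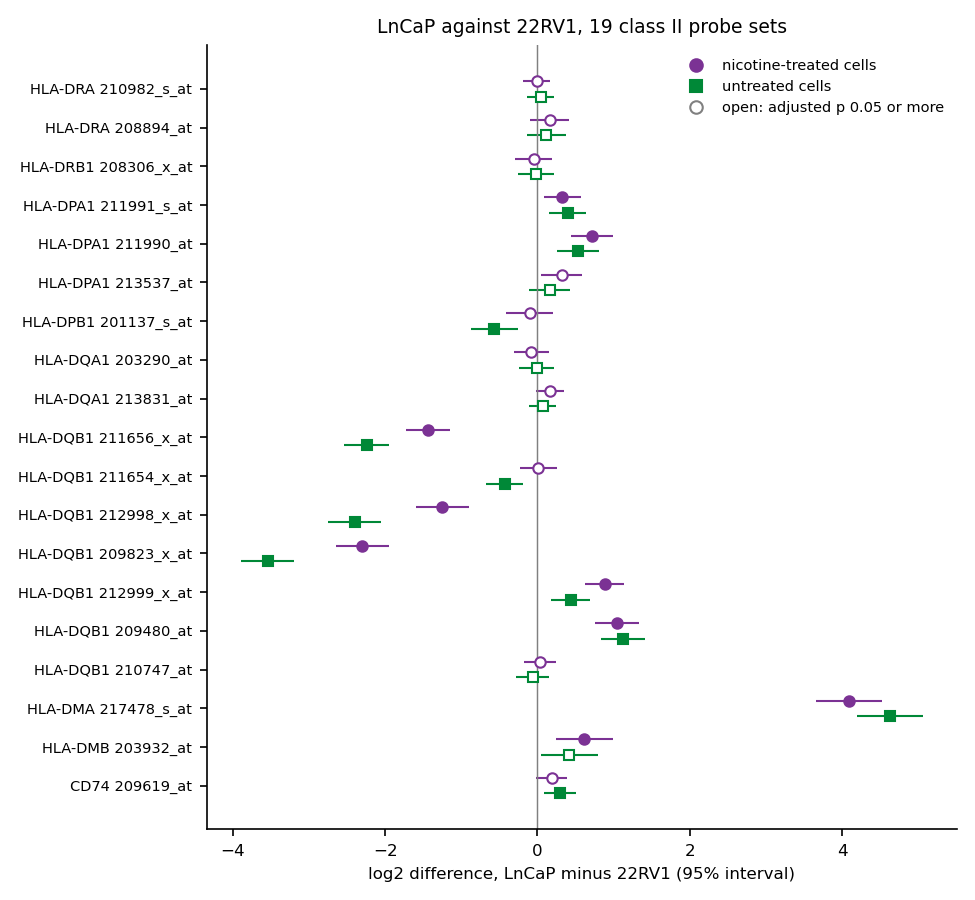
Log2 difference, LnCaP minus 22RV1, of each of the 19 class II probe sets in nicotine-treated cells (purple circles) and untreated cells (green squares), with 95% intervals of the limma fit (3 arrays per group). Filled symbols have an adjusted p under 0.05. HLA-DMA lies at 4.09 in treated and 4.63 in untreated cells, and HLA-DQB1 probe sets lie on both sides of 0.

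HLA-DMA encodes the α chain of the peptide exchange factor. Its probe set, 217478_s_at, read 8.54, 8.48 and 8.90 in nicotine-treated LnCaP and 8.47, 8.66 and 9.25 in untreated LnCaP, against 4.45, 4.50 and 4.71 in nicotine-treated 22RV1 and 4.31, 4.35 and 3.83 in untreated 22RV1. All 6 LnCaP arrays thus stood above all 6 22RV1 arrays, with no overlap between the lines. LnCaP minus 22RV1, the difference was 4.09 ± 0.20 between the treated lines (log2, SE, n = 3 per group; 17.0-fold, limma adjusted p = 8.21e-09) and 4.63 ± 0.20 between the untreated lines (24.8-fold, adjusted p = 2.95e-09). All 6 22RV1 values lay below the lower quartile of every array (4.73 to 4.82), so both folds are taken against dim signal. The untreated difference was called under every alternative tried, between 4.24 and 4.79. In bulk RNA, a larger share of expressing cells and more RNA per cell cannot be told apart.

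HLA-DMB, which encodes the β chain of the same pair, differed far less. Its values were 8.60, 8.63 and 8.60 in nicotine-treated LnCaP and 8.43, 8.47 and 8.72 in untreated LnCaP, against 7.75, 7.87 and 8.36 in nicotine-treated 22RV1 and 7.88, 7.99 and 8.47 in untreated 22RV1. The treated lines did not overlap, whereas in untreated cells the third 22RV1 array reached the LnCaP range. HLA-DMB was higher in treated LnCaP by 0.62 ± 0.17 (log2, SE, n = 3 per group; adjusted p = 0.0104), and its difference between the untreated lines was 0.42 ± 0.17 (adjusted p = 0.0667, not called). The untreated difference passed with the replicate number as a block shared by both lines (adjusted p = 0.011). Whether the numbers match between the lines was not tested. The untreated difference also passed without untreated 22RV1 replicate 3 (adjusted p = 0.00987) and without treated 22RV1 replicate 3 (adjusted p = 0.0273). The 2 chain genes of HLA-DM are neighbours on chromosome 6 (GRCh38.p14, HLA-DMB at chr6:32934636-32941028 and HLA-DMA at chr6:32948618-32953097).

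**Figure D3:**
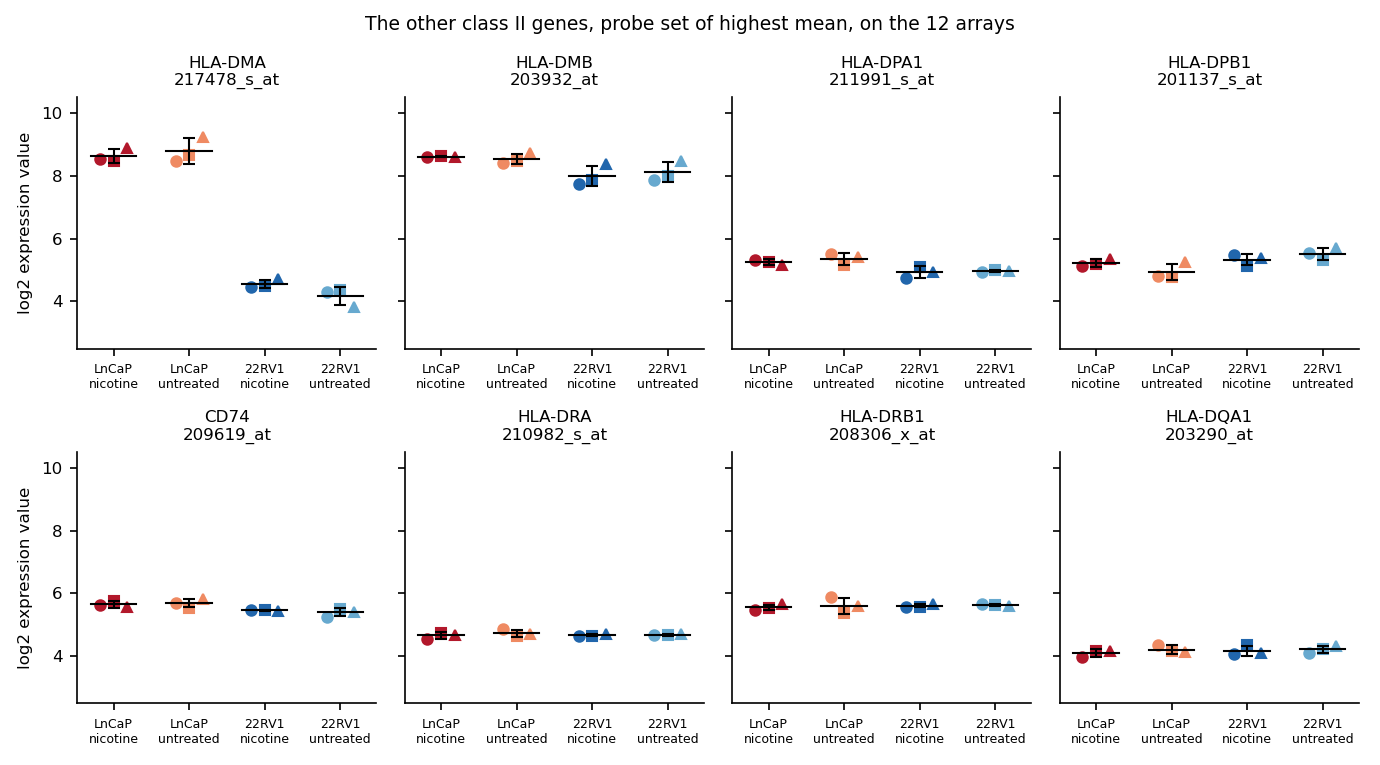
Log2 expression values of the 8 class II genes other than HLA-DQB1 (the probe set of highest mean for each gene) on the 12 arrays, by group from LnCaP nicotine to 22RV1 untreated. Symbols are replicates 1 to 3, and the bar and whiskers are the mean and SD of 3 arrays. HLA-DMA separates the lines, and HLA-DRA, HLA-DRB1 and HLA-DQA1 stay within 0.51 log2 units over all arrays.

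CD74, the invariant chain gene, read 5.62, 5.77 and 5.56 in nicotine-treated LnCaP and 5.70, 5.55 and 5.83 in untreated LnCaP, against 5.47, 5.47 and 5.45 in nicotine-treated 22RV1 and 5.26, 5.51 and 5.42 in untreated 22RV1. The arrays of the lines did not overlap, although all 12 values lay within 0.56 log2 units. Between the treated lines the difference was 0.18 ± 0.09 (log2, SE, n = 3 per group; limma adjusted p = 0.134, not called). CD74 was higher in untreated LnCaP by 0.30 ± 0.09 (adjusted p = 0.0229). The untreated call was lost without untreated 22RV1 replicate 1 (adjusted p = 0.0985), without untreated LnCaP replicate 1 (adjusted p = 0.0564) and without untreated LnCaP replicate 3 (adjusted p = 0.0945).

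HLA-DR is the pair formed by HLA-DRA and HLA-DRB1, and no call was made for it in any comparison. The HLA-DRA probe set 210982_s_at stayed between 4.55 and 4.86 over all 12 arrays, and the other, 208894_at, between 4.19 and 4.80. HLA-DRB1 208306_x_at stayed between 5.37 and 5.87. In each of these probe sets the arrays of the lines overlapped, both in treated and in untreated cells. HLA-DQA1, the α chain partner of HLA-DQB1, was likewise not called in any comparison, with 203290_at between 3.97 and 4.37 and 213831_at between 3.26 and 3.58. Together with HLA-DPA1 213537_at and HLA-DQB1 210747_at, these made 7 probe sets with no call in any comparison. Their log2 differences ran from -0.08 to 0.32 between the treated lines and from -0.06 to 0.16 between the untreated lines, and the 95% intervals from -0.31 to 0.59. Except for HLA-DRB1 208306_x_at, the values of these probe sets lay below or near the lower quartile of an array (4.73 to 4.82). For such dim probe sets, the lack of a call does not show equal RNA in the lines.

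In untreated cells, HLA-DPA1 211990_at and 211991_s_at were higher in LnCaP and HLA-DPB1 201137_s_at was lower, whereas in treated cells HLA-DPB1 was not called. HLA-DPA1, the α chain gene, had 3 probe sets, of which 211990_at read 4.42, 4.65 and 4.19 in nicotine-treated LnCaP and 4.36, 4.34 and 3.96 in untreated LnCaP, against 3.75, 3.61 and 3.72 in nicotine-treated 22RV1 and 3.64, 3.72 and 3.71 in untreated 22RV1. Every LnCaP array was above every 22RV1 array, and the difference was 0.72 ± 0.13 in treated and 0.53 ± 0.13 in untreated cells (log2, SE, n = 3 per group; limma adjusted p = 0.000455 and 0.00418). All 12 values of 211990_at, from 3.61 to 4.65, lay below the lower quartile of every array (4.73 to 4.82). The probe set 211991_s_at was also higher in LnCaP, by 0.33 ± 0.11 in treated and 0.40 ± 0.11 in untreated cells (adjusted p = 0.0305 and 0.0121). The untreated call of 211991_s_at was lost without untreated LnCaP replicate 1 (adjusted p = 0.0561). The third probe set, 213537_at, had differences of 0.32 in treated and 0.16 in untreated cells that were not called, so the 3 HLA-DPA1 probe sets shared a direction but not a call.

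HLA-DPB1, the β chain gene, had 1 probe set, 201137_s_at, with values of 5.13, 5.19 and 5.36 in nicotine-treated LnCaP and 4.81, 4.79 and 5.24 in untreated LnCaP, against 5.47, 5.14 and 5.38 in nicotine-treated 22RV1 and 5.53, 5.31 and 5.69 in untreated 22RV1. The treated arrays of the lines overlapped and the untreated ones did not. The log2 difference was -0.10 ± 0.14 between the treated lines (SE, n = 3 per group; limma adjusted p = 0.598, not called), while HLA-DPB1 was lower in untreated LnCaP, at -0.56 ± 0.14 (adjusted p = 0.00574). The genes of the pair overlap on opposite strands (GRCh38.p14, HLA-DPA1 at chr6:33064569-33080748 and HLA-DPB1 at chr6:33075990-33089696), and the strand each probe set reads was not analysed here.

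HLA-DQB1, the β chain gene of HLA-DQ, had 7 probe sets, and they disagreed. Between the untreated lines 4 were called lower in LnCaP, 2 higher and 1 not called. Of the 7 names, 5 end in _x_at, which in Affymetrix naming marks probes that may also match other transcripts. The gene lies at chr6:32659467-32666657 (GRCh38.p14), and which exons or alleles each probe set matches was not analysed here.

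The largest HLA-DQB1 difference was that of 209823_x_at. It read 6.09, 5.97 and 6.12 in nicotine-treated LnCaP and 5.57, 5.61 and 6.03 in untreated LnCaP, against 8.03, 8.40 and 8.65 in nicotine-treated 22RV1 and 9.47, 9.26 and 9.11 in untreated 22RV1. All LnCaP arrays were below all 22RV1 arrays, with a difference of -2.30 ± 0.16 in treated cells (log2, SE, n = 3 per group; 4.92-fold lower, limma adjusted p = 2.34e-07) and -3.54 ± 0.16 in untreated cells (11.7-fold lower, adjusted p = 5.21e-09). The probe set 212998_x_at showed the same order of lines. Its values were 6.87, 6.77 and 6.81 in nicotine-treated LnCaP and 6.30, 6.90 and 6.34 in untreated LnCaP, against 8.03, 8.05 and 8.12 in nicotine-treated 22RV1 and 9.13, 9.02 and 8.60 in untreated 22RV1. It was 2.38-fold lower in treated LnCaP (log2 difference -1.25 ± 0.16, adjusted p = 3.49e-05) and 5.28-fold lower in untreated LnCaP (-2.40 ± 0.16, adjusted p = 1.54e-07).

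The HLA-DQB1 probe set of highest mean, 211656_x_at, followed the same order. It read 7.14, 7.49 and 7.29 in nicotine-treated LnCaP and 7.32, 7.37 and 6.997 in untreated LnCaP, against 8.66, 8.59 and 8.99 in nicotine-treated 22RV1 and 9.55, 9.52 and 9.34 in untreated 22RV1, with no overlap between the lines. The log2 difference was -1.44 ± 0.13 in treated cells (SE, n = 3 per group; limma adjusted p = 2.57e-06) and -2.24 ± 0.13 in untreated cells (adjusted p = 6.11e-08). Over the 12 arrays, the Pearson correlation of 211656_x_at was 0.98 with 212998_x_at and 0.98 with 209823_x_at, a description over arrays that share 4 groups. The fourth, 211654_x_at, had a difference of 0.01 ± 0.11 between the treated lines (adjusted p = 0.945) and was lower in untreated LnCaP, at -0.43 ± 0.11 (adjusted p = 0.00779).

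A pair of HLA-DQB1 probe sets ran the other way. The probe set 209480_at read 5.50, 5.26 and 5.27 in nicotine-treated LnCaP and 5.36, 5.59 and 5.05 in untreated LnCaP, against 4.45, 4.11 and 4.33 in nicotine-treated 22RV1 and 4.25, 4.15 and 4.24 in untreated 22RV1. All LnCaP arrays were above all 22RV1 arrays, by 1.05 ± 0.13 in treated cells (log2, SE, n = 3 per group; limma adjusted p = 3.40e-05) and 1.12 ± 0.13 in untreated cells (adjusted p = 2.14e-05). Likewise 212999_x_at was higher in LnCaP, by 0.88 ± 0.12 in treated and 0.44 ± 0.12 in untreated cells (adjusted p = 6.02e-05 and 0.0102). The correlation of 209480_at over the 12 arrays was 0.86 with 212999_x_at and -0.96 with 209823_x_at. The seventh, 210747_at, stayed between 4.02 and 4.32 on all arrays. A direction for HLA-DQB1 therefore depends on the probe set read, and it is named with each value here. The pair higher in LnCaP was dim, at 4.11 to 5.59 for 209480_at and 4.37 to 5.55 for 212999_x_at. The lower quartile of an array lay between 4.73 and 4.82. By contrast, 211656_x_at, 212998_x_at and 209823_x_at, lower in LnCaP, had highest values of 9.55, 9.13 and 9.47.

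**Figure D4:**
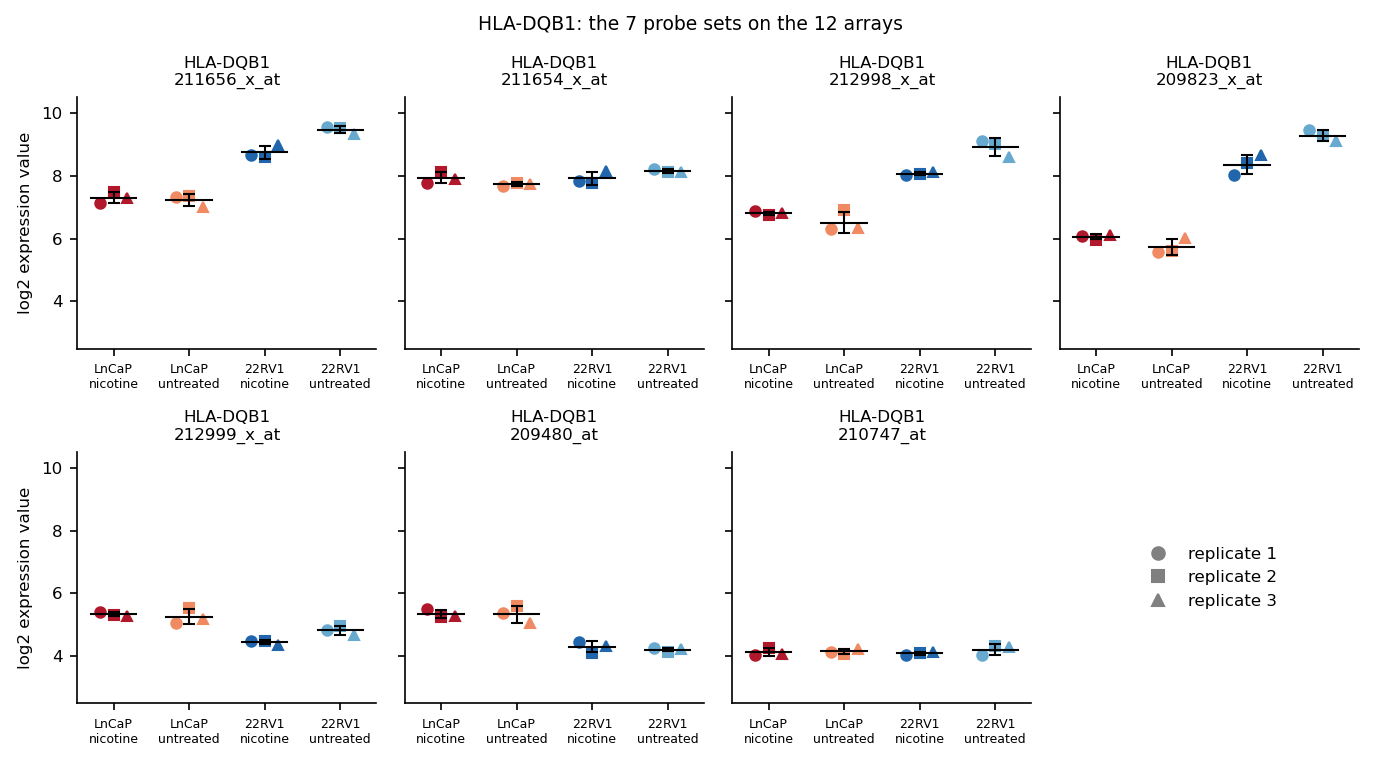
Log2 expression values of the 7 HLA-DQB1 probe sets on the 12 arrays, by group from LnCaP nicotine to 22RV1 untreated, with replicates 1 to 3 as symbols and the mean and SD of 3 arrays as bar and whiskers. LnCaP lies below 22RV1 in 211656_x_at, 212998_x_at and 209823_x_at and above it in 212999_x_at and 209480_at.

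The 5 probe sets that name HLA-DRB1, HLA-DQB1 or HLA-DQA1 together with other class II genes (among them HLA-DRB4, HLA-DRB3, HLA-DRB5, HLA-DRB6 and HLA-DQA2) were not called in any comparison. Their log2 differences lay between -0.12 and 0.20 for the treated lines and between -0.04 and 0.12 for the untreated lines. Of the other class II chain genes, HLA-DOA, HLA-DOB, HLA-DRB4 and HLA-DQB2 were measured, and 0 of 4 were called between the lines or after nicotine. Over all probe sets, 46.2% were called between the treated lines and 43.7% between the untreated lines. After nicotine, 0.471% were called in LnCaP and 0% in 22RV1.

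No class II probe set was called after nicotine in either line. Nicotine gave 0 calls among the 19 in LnCaP, where 0.471% of all probe sets were called, and 0 in 22RV1, where 0% were. At an unadjusted p under 0.05, 0 of the 19 passed in LnCaP, where 10.6% of all probe sets did, and 4 in 22RV1, where 5.15% did, and those 4 were HLA-DQB1 probe sets. The averaged effect of both lines also called 0 members (0.211% of all probe sets), as did the difference of the effects, LnCaP minus 22RV1 (0% of all probe sets). The lists of related genes likewise held no call after nicotine in either line.

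**Figure D5:**
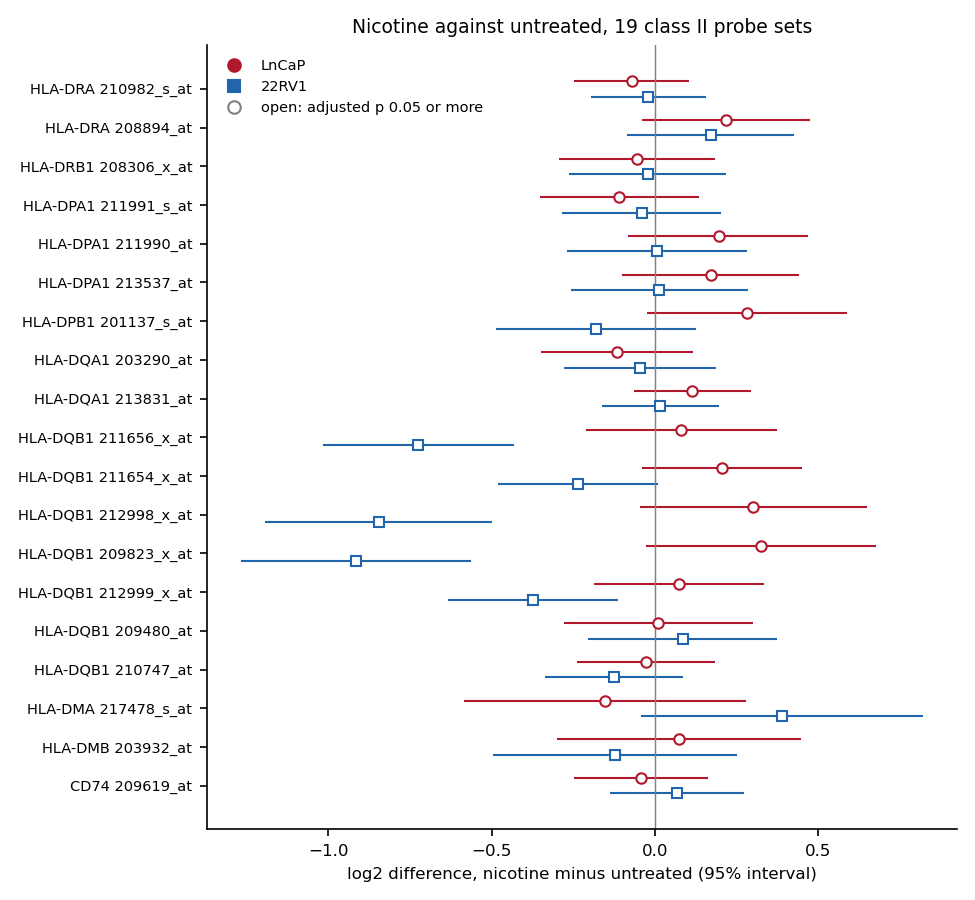
Log2 difference, nicotine minus untreated, of each of the 19 class II probe sets in LnCaP (red circles) and 22RV1 (blue squares), with 95% intervals of the limma fit (3 arrays per group). All symbols are open, since no adjusted p was under 0.05. In 22RV1, the intervals of 4 HLA-DQB1 probe sets lie below 0.

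The widest nicotine differences among the members were those of HLA-DQB1 in 22RV1. For 209823_x_at the nicotine effect was -0.92 ± 0.16 (log2, SE, n = 3 per group; limma adjusted p = 0.350), for 212998_x_at -0.85 ± 0.16 (adjusted p = 0.375) and for 211656_x_at -0.72 ± 0.13 (adjusted p = 0.365). By p-value these were ranked 6, 11 and 10 among 22277 probe sets. In all 3, the treated 22RV1 arrays were below every untreated 22RV1 array, as the values above show, and so they were in 212999_x_at (-0.37 ± 0.12, adjusted p = 0.850). In 22RV1, 5.84% of all probe sets had treated arrays all below the untreated ones. With 3 arrays against 3, an exact permutation test of 1 probe set cannot go below p = 0.1.

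The same HLA-DQB1 probe sets had small positive nicotine differences in LnCaP: 0.33 ± 0.16 for 209823_x_at (log2, SE, n = 3 per group; limma adjusted p = 0.527), 0.30 ± 0.16 for 212998_x_at (adjusted p = 0.568) and 0.08 ± 0.13 for 211656_x_at (adjusted p = 0.929). The effect in LnCaP minus that in 22RV1 was 1.24 ± 0.23 for 209823_x_at (adjusted p = 0.308), 1.15 ± 0.23 for 212998_x_at (adjusted p = 0.309) and 0.81 ± 0.19 for 211656_x_at (adjusted p = 0.518), so none of these differences passed. For 209480_at, the probe set higher in LnCaP, the nicotine effect was 0.01 ± 0.13 in LnCaP and 0.09 ± 0.13 in 22RV1. In 209823_x_at, 212998_x_at and 211656_x_at, the treated 22RV1 arrays lay between the LnCaP arrays and the untreated 22RV1 arrays.

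The 22RV1 values depended on how the arrays were weighted. With limma's array weights, 8 of all 22277 probe sets were called in 22RV1, 5 higher and 3 lower, and the 3 lower (0.0135% of all) were 211656_x_at (adjusted p = 0.0128), 209823_x_at (adjusted p = 0.0132) and 212998_x_at (adjusted p = 0.0207). With the replicate number as a block, none was called (adjusted p = 0.144 for each of 211656_x_at, 209823_x_at and 212998_x_at). Without the 4 arrays numbered 3, the difference of the effects passed for 209823_x_at (1.59, adjusted p = 0.0458) and for 0.0449% of all probe sets.

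The other members gave nicotine differences with intervals that included 0. For HLA-DMA the effect was -0.15 ± 0.20 in LnCaP (log2, SE, n = 3 per group; limma adjusted p = 0.902) and 0.39 ± 0.20 in 22RV1 (adjusted p = 0.972), where all treated arrays lay above all untreated ones, as in 5.49% of all probe sets. All these 22RV1 values of HLA-DMA lay below the lower quartile of every array. HLA-DMB was at 0.07 ± 0.17 in LnCaP and -0.12 ± 0.17 in 22RV1, and CD74 at -0.04 ± 0.09 in LnCaP and 0.07 ± 0.09 in 22RV1. The 95% intervals bound the CD74 effect between -0.25 and 0.16 in LnCaP and between -0.14 and 0.28 in 22RV1. HLA-DPB1 was at 0.28 ± 0.14 in LnCaP (adjusted p = 0.528) and -0.18 ± 0.14 in 22RV1 (adjusted p = 0.999). The 7 probe sets with no call had nicotine differences between -0.11 and 0.22 in LnCaP and between -0.12 and 0.17 in 22RV1.

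The regulators of class II transcription were measured for 8 of 8 listed genes, of which 4 were higher and 2 lower in untreated LnCaP, against 25.1% of all genes higher and 22.2% lower. Their median log2 difference was 0.36, against 0.05 over all 11963 genes. RFX5, a DNA-binding subunit of the RFX complex, was higher by 1.14 ± 0.16 (log2, SE, n = 3 per group; limma adjusted p = 7.15e-05), RFXANK, another RFX subunit, by 0.51 ± 0.10 (adjusted p = 0.00133), the NF-Y subunit gene NFYC by 0.58 ± 0.08 (adjusted p = 0.000106) and CREB1 by 0.56 ± 0.10 (adjusted p = 0.000745). The other NF-Y subunit genes were lower in LnCaP, NFYB with a difference of -0.89 ± 0.09 and NFYA with -0.39 ± 0.10 (adjusted p = 5.89e-06 and 0.00522). CIITA, the coactivator on which class II transcription depends, averaged 5.27 ± 0.07 in treated LnCaP and 5.39 ± 0.07 in untreated LnCaP, against 5.15 ± 0.16 in treated 22RV1 and 5.18 ± 0.0033 in untreated 22RV1 (log2, SD, n = 3). The CIITA difference between the untreated lines was 0.21 ± 0.09 (adjusted p = 0.0752, not called). After nicotine, 0 of the 8 were called in LnCaP and 0 in 22RV1.

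Endosomal proteases trim the invariant chain and make the peptides. Of 9 measured genes of endosomal processing and turnover, 6 were called higher and none lower in untreated LnCaP, against 25.1% of all genes higher and 22.2% lower. Their median log2 difference was 0.88, against 0.05 over all genes. The cathepsin genes CTSV (2.80 ± 0.16), CTSH (2.22 ± 0.12), CTSB (1.77 ± 0.12), CTSL (0.88 ± 0.13) and CTSS (0.29 ± 0.08) and the legumain gene LGMN (1.22 ± 0.14) were called (log2, SE, n = 3 per group; limma adjusted p between 1.86e-08 and 0.0128). CTSS, the protease that makes the last cut in the invariant chain of B cells and dendritic cells, was the one with the smallest difference. MARCHF1, a ubiquitin ligase that removes class II from the surface, was at -0.22 ± 0.14 (adjusted p = 0.238), and IFI30 was not analysed here.

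Of the interferon-γ pathway, 6 of 7 listed genes were measured and 1, the kinase gene JAK2, was called (47.3% of all genes were) between the untreated lines (1.13 ± 0.21 higher in LnCaP, log2, SE, n = 3 per group; limma adjusted p = 0.000653). The receptor genes IFNGR1 and IFNGR2, at 0.10 ± 0.09 and -0.16 ± 0.14, and IRF1, at 0.13 ± 0.15, were not called. Of 11 measured class I presentation genes, 8 were called higher and none lower in untreated LnCaP, against 25.1% of all genes higher and 22.2% lower. Their median log2 difference was 0.92, against 0.05 over all genes. The class I heavy chain genes HLA-B (2.57 ± 0.17), HLA-C (2.83 ± 0.33), HLA-F (1.89 ± 0.16) and HLA-G (1.47 ± 0.16) were called, as were the peptide transporter genes TAP2 (1.58 ± 0.19) and TAP1 (0.56 ± 0.10), with adjusted p between 1.59e-07 and 0.000834.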

How the data were processed

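Expression was measured on 12 single-colour Affymetrix arrays, 3 in each of 4 groups, assigned from the labels' titles. RNA was isolated with TRIzol and labelled with biotin, per the labels' protocols. The authors deposited log2 expression values of 22277 probe sets. How they normalized them, and with what software, is not given in the sources used here. No probe set was filtered out and the deposited numbers entered the fits unaltered. Precision is limited by the array number: the standard error of a nicotine effect had a median of 0.11.

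GEO's platform annotation named the probe sets: 19070 carried 1 symbol, 1043 several and 2164 were unlisted. Updating through Entrez identifiers changed 0 symbols. For positions and promoters, RefSeq tables of GRCh38.p14 were used. A group-means model was fitted to all probe sets by lmFit and eBayes of limma 3.58.1 (R 4.3.3), two-sided, with Benjamini-Hochberg adjustment within a contrast and a call at adjusted p under 0.05. The fit was tested on simulated data.

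Every probe set naming only a member was described. Where 1 value per gene was needed, the probe set of highest mean was used. Of each related list, up to 6 called genes were named by smallest p, and CIITA, RFX5 and IFI30 always. Members and lists were chosen with earlier results of these data known. ITGAX and the list genes named as not called were chosen after their values were seen.

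Replicate numbers recur in each group. Deviations of same-numbered treated and untreated arrays from their group means correlated at 0.36, 0.18 and 0.55 in LnCaP and 0.45, 0.42 and 0.63 in 22RV1. All 6 exceeded the 0.1 required, and the numbers were therefore treated as pairs in an alternative fit with the replicate block. Some different-numbered arrays exceeded 0.1 too. Treated array 1 with untreated array 2 gave 0.25 in 22RV1 and 0.26 in LnCaP, the latter above the same-numbered 0.18. Treated array 2 with untreated array 1 gave 0.20 in 22RV1 and 0.02 in LnCaP. The remaining different-numbered values were negative. Exceeding 0.1 therefore does not show that arrays numbered 1 and 2 were pairs. For differences between the lines, the block was shared by both lines, and these correlations within a line do not test that. Further alternatives were a gene-level fit, leaving out arrays, array weights, quantile normalization, median centring, a filter on dim probe sets, fits of the compared groups alone and another variance prior.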

Additional observations from a re-analysis of the deposited data

Results flagged for a closer look

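In HLA-DQB1 209823_x_at and HLA-DPB1 201137_s_at, every same-numbered pair of arrays had a positive nicotine difference in LnCaP and a negative one in 22RV1. For 209823_x_at the pairs were at 0.52, 0.36 and 0.10 log2 units in LnCaP, against -1.44, -0.86 and -0.46 in 22RV1, and the effect in LnCaP minus that in 22RV1 was 1.24 ± 0.23 (SE, n = 3 per group; limma adjusted p = 0.308). For 201137_s_at the pairs were at 0.33, 0.40 and 0.12 in LnCaP, against -0.06, -0.17 and -0.31 in 22RV1, and the difference of effects was 0.46 ± 0.20 (adjusted p = 0.796). Neither difference passed the test, which ignores the pairs. With the replicate number as a block, neither passed either (limma adjusted p = 0.072 for 209823_x_at and 0.172 for 201137_s_at). Pairs opposed between the lines, counted in either direction, were found for 1093 of all 22277 probe sets, or 4.91%. Among the 19 class II probe sets they were found for 2.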

How the results depend on the processing

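Between the untreated lines, HLA-DMA, HLA-DPB1 and HLA-DQB1 209823_x_at, 212998_x_at, 211656_x_at and 211654_x_at were called in the same direction under every alternative that included them. HLA-DPA1 211990_at and HLA-DQB1 209480_at were left out by the filter on dim probe sets. Both were called in the same direction under the 19 alternatives that included them. A gene-level fit with 1 probe set per gene gave 5 calls of 9 genes between the untreated lines, where 5719 of all 11963 genes were called. Between the treated lines it gave 4 of 9, where 5973 of all 11963 genes were called. These counts stand in place of 11 and 9 of 19 probe sets, because fewer probe sets were tested. The other calls between untreated lines depended on arrays: without the arrays numbered 3, CD74 (adjusted p = 0.120), HLA-DPA1 211991_s_at (0.0793) and HLA-DQB1 212999_x_at (0.0502) were lost and HLA-DMB was gained (0.00149). CD74 was also lost with array weights (0.0578) and in a fit of only the compared groups (0.0605), and HLA-DMB was gained with array weights (0.00643), median centring (0.0424) and the replicate block (0.011). The replicate block changed no other call of a class II probe set. After nicotine, array weights gave 3 class II calls in 22RV1 and 1 in the averaged effect, and leaving out the arrays numbered 3 gave 1 for the difference of effects, against 0 for each in the fit reported. The cause was not tested. Leaving out 1 array at a time gave 0 class II calls after nicotine each time.

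Uncalled nicotine differences near 0 changed sign. In LnCaP these were HLA-DQB1 209480_at (-0.095 without the arrays numbered 3, -0.033 with array weights, -0.0069 with median centring), CD74 (0.071) and HLA-DQB1 211656_x_at (-0.025), both without the arrays numbered 3, and HLA-DPA1 211991_s_at (0.086 as the mean of its gene's probe sets). In 22RV1 it was HLA-DPA1 211990_at (-0.0094 with array weights, -0.011 with median centring). For the difference of effects it was HLA-DPA1 211991_s_at (0.017 without the arrays numbered 3, 0.093 as the mean of probe sets). Leaving out 1 array at a time, the nicotine difference in LnCaP ran from -0.13 to 0.14 for HLA-DQB1 209480_at, from -0.033 to 0.17 for 211656_x_at, from -0.022 to 0.22 for 212999_x_at, from -0.11 to 0.026 for CD74 and from -0.32 to 0.074 for HLA-DMA. In 22RV1 it ran from -0.31 to 0.057 for HLA-DMB, from -0.022 to 0.047 for HLA-DPA1 211990_at and from -0.13 to 0.058 for 211991_s_at. The difference of effects ran from -0.22 to 0.052 for HLA-DQB1 209480_at and from -0.18 to 0.019 for HLA-DPA1 211991_s_at.

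Over all probe sets, the 105 calls in LnCaP became 847 with the replicate block, 165 with array weights, 177 with a trended robust prior, 2 with the LnCaP arrays alone and 1 without treated LnCaP replicate 2. The 47 of the averaged effect became 448 with the block, 120 with array weights, 86 with the trended robust prior, 16 without the arrays numbered 3, and 0 without treated LnCaP replicate 2 or without untreated 22RV1 replicate 3. With the replicate block, 55 were called for the difference of effects, against 0 without it.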

Other observations

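The HLA-DRA pattern had no close match. Over the 12 arrays, the genes with the highest Pearson correlation with HLA-DRA 210982_s_at were LRRTM4 (0.87), AGBL2 (0.86), MYOZ3 (0.86), ADAM20 (0.86) and MMP20 (0.85), and 0 of 11954 genes exceeded 0.9. For HLA-DMA, 1678 genes exceeded 0.9, and for HLA-DQB1 211656_x_at, 979 did. These arrays share 4 groups, and HLA-DRA itself ranged over only 0.31 log2 units, so the values are descriptions.

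Within groups, the HLA-DQB1 probe sets did not vary as one. Correlations of deviations from the group means over the 12 arrays were 0.83 for 212998_x_at with 212999_x_at, a pair that differed between the lines in opposite directions, and 0.76 for 211656_x_at with 211654_x_at. For 211656_x_at with 209823_x_at, whose levels correlated at 0.98 over all arrays, the value was 0.02.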
